A study of Mus musculus with 9 samples.

Results

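Max knockdown embryonic stem (ES) cells were compared with control ES cells across the whole transcriptome on 6 of the 9 arrays of the series. The members were chosen by their titles: the 3 arrays of cells that had received siRNA against Max, replicates 1, 2 and 4, and the 3 arrays of cells that had received the non-silencing AllStars siRNA, replicates 1, 2 and 3. All 6 came from VV3 cells, a male ES line (strain 129SV) in which the Vasa (Ddx4) promoter drives the fluorescent protein Venus. Both groups were grown in ES cell medium with LIF, KSR and FBS, were transfected with Lipofectamine RNAiMAX, and were sorted by FACS after 3 days of culture. Control cells were sorted as live single cells, whereas knockdown cells were sorted as live, single and Venus-positive, so that the effect of the siRNA and the effect of the Venus gate cannot be told apart. VV3 is a single cell line, the reporter reads a germ cell promoter, and the other 3 arrays, of E13.5 primordial germ cells (PGCs), are used only for a description of the genes that crossed the detection limit and in 1 alternative fit. The design text calls the replicates of a group biological. Of 39429 probes besides controls, 39370 were described. The other 59 had an outlier flag on an array.

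MAX is a small helix-loop-helix leucine zipper protein that binds the E-box, a short palindromic DNA motif, as one partner of a dimer. With MYC family proteins it activates genes of growth and metabolism, and with MXD proteins, MNT or MGA it represses. MGA and MAX are also subunits of PRC1.6, a Polycomb complex that keeps germ cell and meiotic genes silent in ES cells and other non-germline cells, together with E2F6, PCGF6 and L3MBTL2. The series asks, by its title, whether Max represses germ cell genes in ES cells.

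Values are log2 signals on a scale where 0 is each array's 75th percentile, so 0 is a fairly bright probe and values near -6 or below lie around the background. Tests covered the 24176 probes that were well above background throughout the control arrays or throughout the knockdown arrays. Differences are knockdown minus control on the log2 scale from limma's fit with the slide as a block, with their standard error (SE), and "rose" and "fell" mean a Benjamini-Hochberg adjusted p below 0.05 over all tested probes. Between 59.9% and 67.6% of an array's spots passed the scanner software's test of being well above background. Saturation flags were absent. Over the tested probes, arrays of a group correlated at 0.992 to 0.996, and arrays of different groups at 0.965 to 0.972. The groups separated on the first principal component, with 77.5% of the variance, and the slides on the second, with 11%. Of 10 ES cell markers, all 9 on the array were above background on every control array and 8 on every knockdown array.

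A large part of the transcriptome differed. In the knockdown cells 5262 probes rose (21.8%) and 6678 fell (27.6%), so that 49.4% of the tested probes passed in either direction. At 2-fold or more, 1492 probes rose (6.17%) and 1154 fell (4.77%). Without control 3, or without knockdown 4, only slide 1 informs the difference. Both counts were then smaller, 3576 rises and 4003 falls, with 1491 and 1116 at 2-fold or more. With a normexp background correction of the median signals no probe passed. In it, 12 spots of knockdown 1 had a very high local background, and without such spots 5835 probes rose and 5927 fell, but only 754 and 429 of them at least 2-fold. Genes are described below by 1 probe each, the brightest over the 6 arrays. Among 14037 genes with a symbol, 3225 rose (23%) and 4064 fell (29%), with 854 rises (6.08%) and 793 falls (5.65%) of at least 2-fold. The counts of list members below are to be read beside these shares. Falls were more numerous, though with spike-in scaling the probe counts were nearly even, at 4295 rises and 4446 falls. The largest changes were rises. At least 4-fold rises numbered 286 against 102 falls, at least 8-fold rises 92 against 15, and at least 16-fold rises 19 against 2. All 6 genes that passed 32-fold rose.

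**Figure D1:**
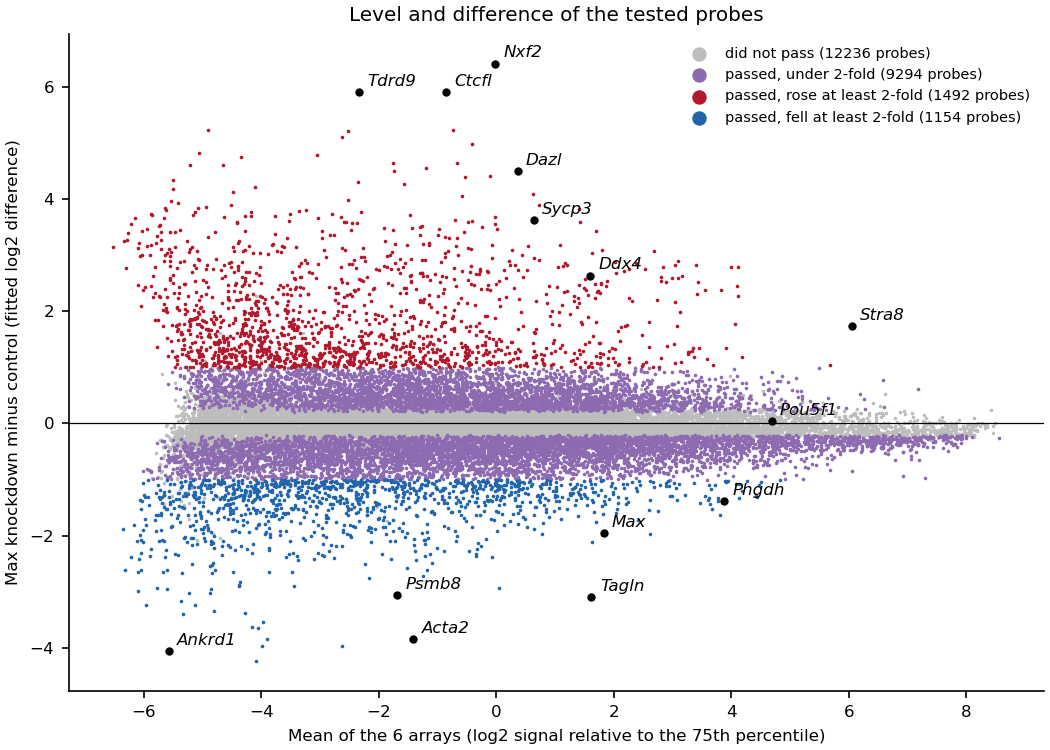
Each point is 1 of 24176 tested probes, with the mean log2 signal of the 6 arrays on the x axis and the fitted log2 difference between knockdown and control on the y axis. Red points rose and blue points fell at least 2-fold, and the rises reach to 6.41 (Nxf2) where the falls end at -4.23 (Megf10).

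The targeted gene was low on every knockdown array. Max stood at 2.84, 2.73 and 2.85 on the control arrays and at 0.59, 0.83 and 1.13 on the knockdown arrays, with no overlap. It fell by 1.96 on the log2 scale (SE 0.12, limma adjusted p = 0.00032). Ddx4, the RNA helicase whose promoter drives Venus, stood at 0.44, 0.27 and 0.13 in control cells and at 3.07, 2.95 and 2.73 in knockdown cells. Its rise of 2.64 (SE 0.08, adjusted p = 7.3e-05) is not independent of the sort. Pou5f1, which encodes the pluripotency factor OCT4, stood at 4.61, 4.73 and 4.66 against 4.57, 4.81 and 4.74, and the groups overlapped (difference 0.04, SE 0.09, adjusted p = 0.75).

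Other genes of the MAX network moved in both directions. Among 26 tested members of the network and of PRC1.6, 9 rose and 9 fell, with a median of 0.03 against -0.06 over all genes with a symbol. Without control 3, or without knockdown 4, the counts were 6 and 3. Mxd4, a repressor partner of MAX, stood at -1.93, -1.87 and -1.54 in control cells and at -0.03, -0.00 and 0.12 in knockdown cells, a rise of 1.81 (SE 0.08, adjusted p = 0.00017). Myc itself rose by 1.33, its relative Mycl by 0.87, and the repressor partner Mxd1 by 0.53. Within PRC1.6, the scaffold gene Mga rose by 0.51 and L3mbtl2, a reader of histone marks, by 0.55, while Pcgf6 fell by 0.29, the ubiquitin ligase gene Ring1 (2 of 3 knockdown arrays above background) by 0.52 and the H3K9 methyltransferase gene Ehmt2 by 0.62. E2f6, the DNA-binding subunit, did not pass (difference -0.10).

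**Figure D2:**
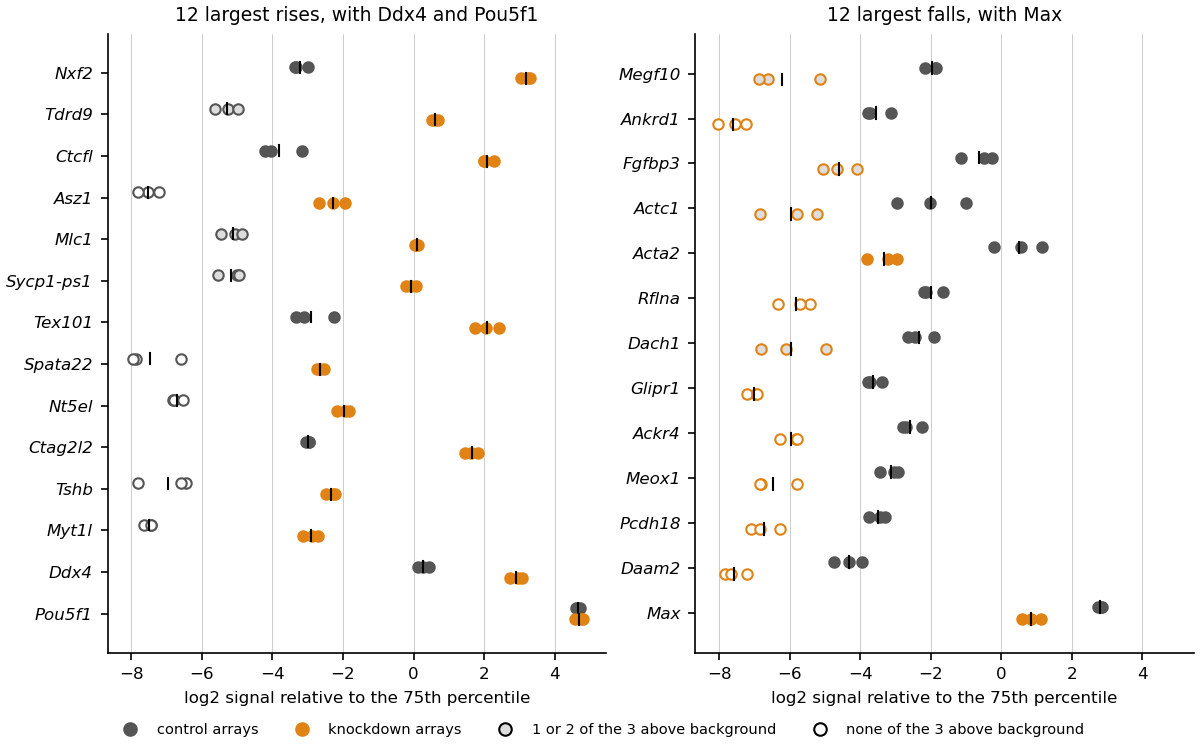
Log2 signals relative to the 75th percentile of each array are shown for the 12 largest rises and 12 largest falls with Ddx4, Pou5f1 and Max, with 1 point per array and a bar at the group mean. Points of the 2 groups overlap for Pou5f1 only, and pale or open points mark groups with fewer than 3 arrays above background, such as Asz1 in control cells and Ankrd1 in knockdown cells.

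The 12 largest rises were led by genes known from the germline. Nxf2, an X-linked mRNA export factor of the testis, stood at -3.32, -3.35 and -3.00 on the control arrays and at 3.30, 3.04 and 3.23 on the knockdown arrays, a difference of 6.41 (SE 0.11, adjusted p = 5.7e-05). Ctcfl, the germline paralog of the insulator protein CTCF, stood at -4.03, -4.22 and -3.16 against 2.0, 2.0 and 2.28, a difference of 5.90 (SE 0.16, adjusted p = 5.8e-05), while Ctcf itself did not pass (difference -0.03). Tex101, a membrane protein of germ cells, stood at -3.34, -3.10 and -2.25 against 2.41, 1.76 and 2.05. Control 3 was the highest control array for both, and the groups did not overlap. Ctag2l2, a cancer-testis antigen relative, was even on all arrays of a group, at -3.05, -2.95 and -2.97 against 1.82, 1.64 and 1.47. Not all leading rises are known from the germline. Mlc1, a membrane protein known from astrocytes, stood at -5.07, -5.46 and -4.85 in control cells, 2 arrays of which were above background, against 0.05, 0.07 and 0.13. Tshb, a subunit of the thyroid-stimulating hormone of the pituitary, was above background on no control array and was at least 10.8-fold higher in knockdown cells. Myt1l, a neuronal zinc finger factor, was at least 7.31-fold higher by the probe used, and its other probes gave differences of 2.87 and 2.44.

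Of the piRNA pathway, which silences transposons in the germline through small RNAs held in germ granules, 17 of 23 tested members rose and 1 fell, against backgrounds of 23% and 29%. The risen members include Ddx4, whose promoter drives Venus and whose rise is not independent of the sort. At 2-fold, 13 rose, and the median was 1.52, or 1.38 with genes dim in control cells at their bound. In the order of the pathway, the PIWI protein gene Piwil2 rose by 1.92 and Piwil1 (2 of 3 control arrays above background) by 0.82, and the helicase genes Mov10l1 and Tdrd9 rose by 4.39 and 5.91. Tdrd9 stood at -5.64, -5.27 and -4.97 on the control arrays, 2 of which were above background, and at 0.62, 0.53 and 0.69 on the knockdown arrays (SE 0.13, adjusted p = 5.7e-05). Mov10l1 stood at -2.63, -2.88 and -2.63 against 1.65, 1.66 and 1.70 (SE 0.09, adjusted p = 5.7e-05). The knockdown arrays of both genes lay close together and far above the control arrays. Among the scaffold and Tudor proteins, Asz1 and Tdrd1 were above background on no control array and were at least 11.2-fold and 2.60-fold higher, and Stk31, Mael and Tdrd12 rose by 2.95, 2.53 and 1.99. Fkbp6, a co-chaperone of piRNA loading, stood at -0.70, -0.50 and -0.34 against 3.26, 3.28 and 3.41 (difference 3.83, SE 0.09). Tdrd5, Tdrkh, Tdrd3, Pnldc1 and Mybl1, the last a transcription factor of pachytene piRNA genes, did not pass. Gtsf1l fell by 0.64, from 2.50, 2.36 and 2.22 to 1.68, 1.81 and 1.67, while its paralog Gtsf1 rose by 1.92. Of 26 members on the array, 19 were above background on all control arrays and 23 on all knockdown arrays, and a member tested only through its knockdown arrays had to differ.

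The axis and synaptonemal complex, the protein structure that holds homologous chromosomes together in meiosis, showed the same direction in most members. Rises numbered 13 of 16 tested members with no fall, 12 of them at least 2-fold, with a median of 1.95. Of 18 members on the array, 14 were above background on all control arrays and 16 on all knockdown arrays. A member tested only through its knockdown arrays had to differ. Sycp3, an axial element, stood at -1.12, -1.38 and -1.0 in control cells and at 2.66, 2.30 and 2.39 in knockdown cells (difference 3.62, SE 0.14, adjusted p = 0.00013). Sycp1, the transverse filament, rose by 4.56, and the central element gene Syce1 from 1.54, 1.62 and 1.80 to 4.50, 4.46 and 4.68. The related probe of Sycp1-ps1, a pseudogene with 2 of 3 control arrays above background, rose by 5.11, and the signals of both loci may not be separable by these probes. Hormad1, an axis protein, rose by 2.83 and Smc1b, the meiotic cohesin subunit, by 2.19. Smc1b and Syce1 were already well above the 75th percentile in control cells, with all 3 arrays over 1. Trip13, which remodels HORMA proteins also in mitosis, and the cohesin gene Rec8 did not pass (differences 0.13 and 0.33).

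Recombination genes divided. Of 23 tested, 15 rose, 9 of them at least 2-fold, and 1 fell, with a median of 0.90. Of 24 members on the array, 20 were above background on all control arrays and 22 on all knockdown arrays. A member tested only through 1 group had to differ. Mei1, needed for meiotic double-strand breaks, stood at -3.11, -2.37 and -2.35 against 1.41, 1.5 and 1.44 (difference 4.06, SE 0.21, adjusted p = 0.00024), and Tex11, an X-linked crossover protein, rose by 2.91 by the probe used and 1.98 by another. Spata22, a partner of MEIOB on single-stranded DNA, was at least 8.75-fold higher, and Hfm1, a crossover helicase, at least 4.07-fold higher. Prdm9, the methyltransferase that places hotspots, rose by 1.75 (1 of 3 control arrays above background), and Ccnb1ip1, a crossover ubiquitin ligase, by 2.03. The strand exchange gene Dmc1 rose only by 0.35. Mlh3, which also serves mismatch repair, and the DMC1 partners Psmc3ip and Mnd1 did not pass (0.16, -0.23 and -0.29). The crossover cyclin-like gene Cntd1 was at least 2.13-fold lower. Stra8, the retinoic-acid-induced gene at the start of meiosis, was among the brightest probes in both groups, at 4.90, 5.20 and 5.45 in control cells and 6.82, 6.74 and 7.19 in knockdown cells, and rose by 1.73 (SE 0.10, adjusted p = 0.00031).

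Among germline RNA-binding proteins, 7 of 26 tested members rose and 5 fell, against backgrounds of 23% and 29%, and the median was 0.05. At 2-fold, 3 members rose and none fell. Dazl, a translation regulator of germ cells, stood at -1.20, -2.06 and -2.39 on the control arrays and at 2.76, 2.57 and 2.52 on the knockdown arrays (difference 4.50, SE 0.26, adjusted p = 0.0003). Its relative Boll rose by 3.58 and Cpeb4, a polyadenylation factor with 2 of 3 control arrays above background, by 1.62. Nanos3 and Dnd1, which protect PGCs from death, did not pass, at 0.21 and -0.32. Lin28b, a blocker of let-7, fell by 0.76, Pabpc1l by 0.73 and Eif4e1b, an oocyte cap-binding protein, by 0.80 (2 of 3 knockdown arrays above background, and adjusted p = 0.0917 in the normexp correction without high-background spots).

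Of 19 tested transcription and chromatin factors of germ cells, 11 rose, 6 of them at least 2-fold, and 1 fell, with a median of 0.64. Of 26 on the array, 18 were above background on all control arrays and 19 on all knockdown arrays. A member tested only through its knockdown arrays had to differ. Sohlh1, a helix-loop-helix factor of spermatogonia and oocytes, stood at -3.76, -3.65 and -2.54 against 0.09, 0.26 and 0.83 (difference 3.71, SE 0.13, adjusted p = 0.0001). In both groups the slide 2 array was the highest. Figla, an oocyte factor, was above background on no control array and was at least 4.7-fold higher, and Taf7l, an X-linked subunit variant of TFIID, rose from 1.26, 0.89 and 1.28 to 4.62, 3.95 and 4.08. Prdm1, Prdm14 and Tfap2c, which specify PGCs in the early embryo, did not pass (0.31, 0.35 and 0.29). Against these, Zbtb16 (PLZF), which maintains spermatogonial stem cells, fell by 1.86 (SE 0.21, adjusted p = 0.0016).

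Testis-specific paralogs of housekeeping genes could be set beside the somatic copies. Of 32 tested genes of both kinds, 12 rose and 9 fell, and the median of -0.15 was 0.0 with quantile normalization. Slc25a31, the germline ADP/ATP carrier, stood at -3.66, -3.93 and -3.49 against 0.70, 0.47 and 0.54 (difference 4.26, SE 0.13, adjusted p = 6.9e-05), while its somatic counterparts were at -0.55 (Slc25a4, which fell) and -0.19 (Slc25a5, which did not pass). Pdha2, the testis subunit of pyruvate dehydrogenase, rose by 2.31 and the X-linked Pdha1 fell by 0.54. Ribosomal protein gene Rpl10l rose by 2.17 and Rpl10 fell by 0.37. Likewise Ldhc, testis lactate dehydrogenase, rose by 1.41 where Ldha did not pass (-0.14), and the testis cytochrome gene Cyct rose by 1.87 where Cycs did not pass (-0.17). Pgk2, dim on 2 knockdown arrays, and Aurkc, which are also testis-specific, did not pass (-0.55 and -0.17), and Cox6b2 fell by 0.76.

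Clustered X-linked genes of the reproductive tract and testis rose in 21 of 27 tested cases, 18 of them at least 2-fold, with 3 falls and a median of 1.84, or 1.52 with genes dim in control cells at their bound. Tktl1, a transketolase-like gene, stood at -4.70, -4.98 and -4.93 in control cells and at -1.12, -1.20 and -1.29 in knockdown cells (difference 3.67, SE 0.10, adjusted p = 5.7e-05). Xlr4a and Xlr4b rose by 3.32 and 3.18, Mageb4 by 2.97, and Slx, a spermatid gene with many copies, by 2.79 (1 of 3 control arrays above background). The Rhox homeobox cluster was uneven: Rhox10 rose by 1.94 and Rhox4a by 1.03, Rhox6 and Rhox9 did not pass (0.19 and 0.13), and Rhox5 fell by 0.33. Zxdb, a zinc finger gene, fell by 0.69 (adjusted p = 0.0515 without control 3 or without knockdown 4). Xlr, Rhox, Mage and Slx genes have near-identical copies, so the probe of one may read another. Of 35 members on the array, 22 were above background on all control arrays and 27 on all knockdown arrays. A member tested only through its knockdown arrays had to differ.

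The X chromosome as a whole held a larger share of rises. Of 435 tested symbols with a RefSeq window on X, 64 rose at least 2-fold (14.7%). On all chromosomes with tested windows here, 683 of 11192 did (6.10%), and not every autosome is among them. No autosome with tested symbols here passed 8.77%. On Y only 7 symbols were tested, of which 2 rose at least 2-fold (28.6%). Rises of at least 4-fold made up 7.82% on X and 2.06% on all chromosomes with tested windows. For falls of at least 2-fold the shares were 4.60% and 5.13%.

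Genes of the Prame-like clusters and of the 2-cell-like state, a state of a small fraction of ES cells that resembles the cleavage embryo, rose in 21 of 24 tested cases with no fall, 19 of them at least 2-fold, with a median of 2.55, or 2.48 with bounds. Arg2, a mitochondrial arginase, stood at -2.92, -3.34 and -3.66 against 0.14, -0.36 and -0.71 (difference 3.00, SE 0.17, adjusted p = 0.00031). Zscan4c, of a zinc finger cluster of telomere maintenance, stood at 1.98, 1.59 and 1.49 against 4.55, 4.02 and 4.29, and Gm5662 at 1.37, 1.11 and 0.97 against 4.31, 3.64 and 3.78. These 2 were bright in control cells as well. Tcstv1, Tcstv3, Usp17la and Tmem92 rose by 2.72, 2.69, 2.75 and 2.46. Tdpoz4 was at least 6.81-fold higher and Pramel6 at least 2.59-fold higher. Zfp352 rose by 0.75 and Duxbl1 did not pass (0.39). Many of these genes lie in clusters of near-identical copies, and the probes cannot be taken as specific for 1 of them. Of 27 members on the array, 21 were above background on all control arrays and 24 on all knockdown arrays. A member tested only through its knockdown arrays had to differ. In RNA from a population, a larger share of 2-cell-like cells and more RNA per cell cannot be told apart, here and for every gene group below.

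**Figure D3:**
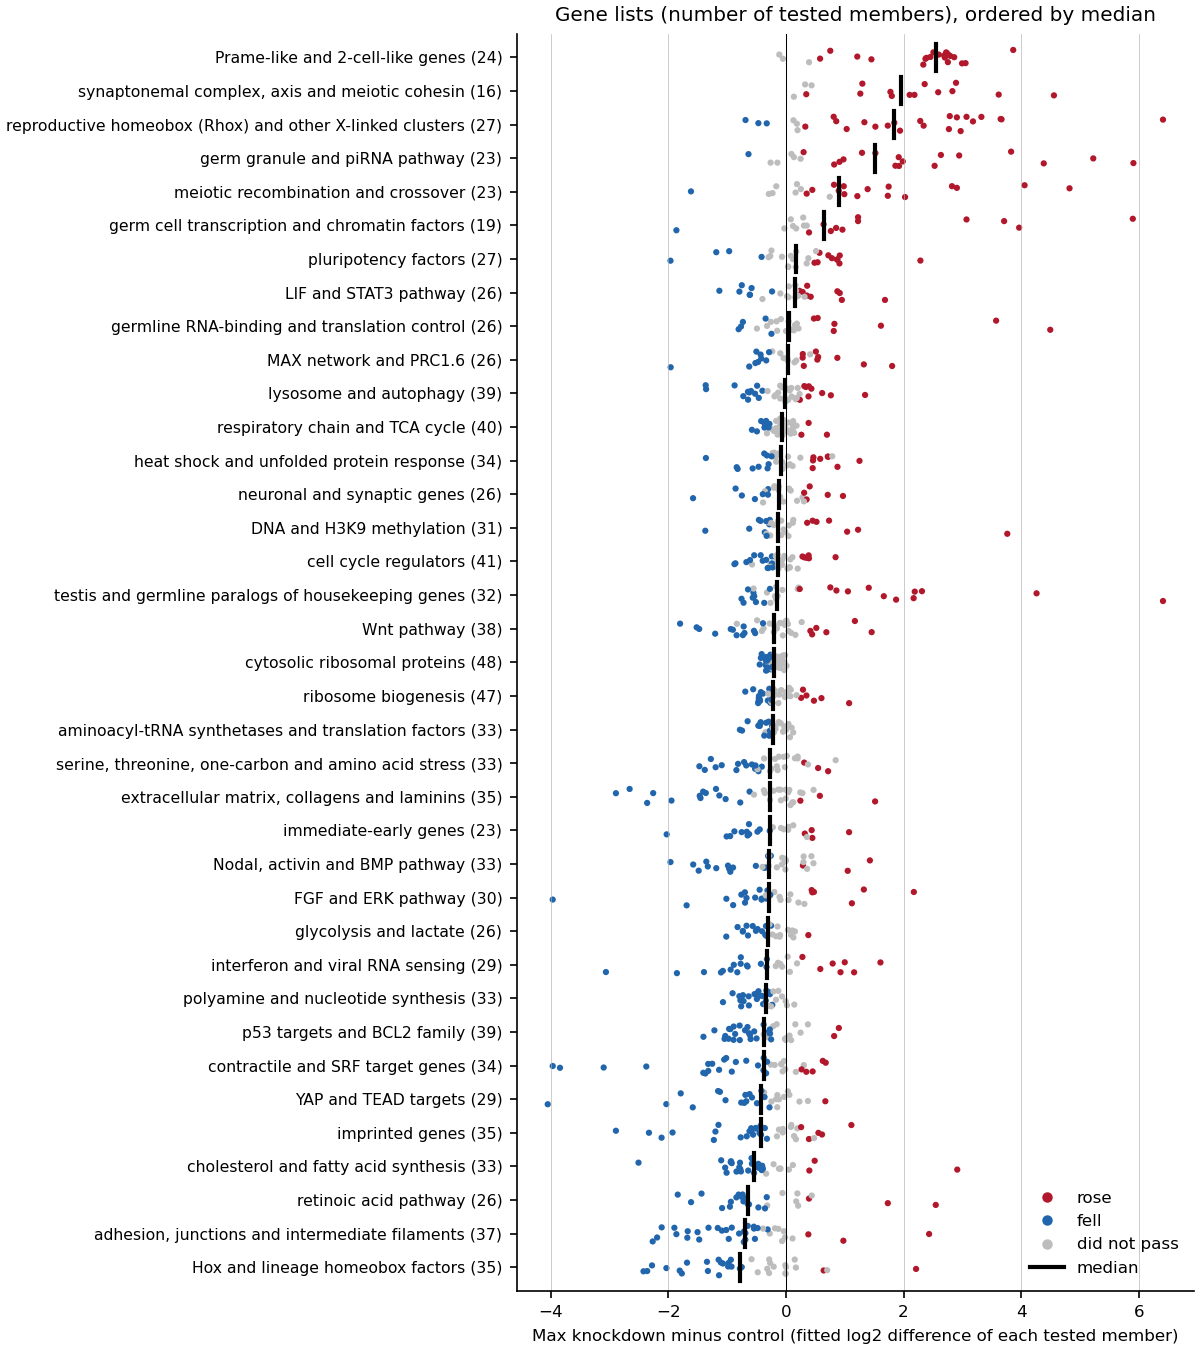
Fitted log2 differences of all tested members are shown for 37 gene lists in the order of the list median (black bar), red for rises, blue for falls and grey for members that did not pass. The 6 lists at the top, with medians from 0.64 to 2.55, hold germline, X-linked and 2-cell-like genes, and the Hox and lineage homeobox list lies lowest, with a median of -0.78.

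Because MAX binds the E-box, the letters upstream of the risen germline genes were read from RefSeq (GRCm38.p6). The sequences shown were chosen from genes with large rises that hold the motif and are written 5′ to 3′ on the strand of the gene, and end at the base before the annotated start. The E-box, CACGTG, is in capitals and reads the same on both strands.

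Nxf2 (chrX:134964755-134965004, minus strand): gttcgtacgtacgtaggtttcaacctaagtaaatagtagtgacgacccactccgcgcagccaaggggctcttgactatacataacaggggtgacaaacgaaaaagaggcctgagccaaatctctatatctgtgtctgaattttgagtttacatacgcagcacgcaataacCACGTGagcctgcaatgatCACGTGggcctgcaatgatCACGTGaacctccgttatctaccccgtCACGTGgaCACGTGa
Tdrd9 (chr12:111971309-111971558, plus strand): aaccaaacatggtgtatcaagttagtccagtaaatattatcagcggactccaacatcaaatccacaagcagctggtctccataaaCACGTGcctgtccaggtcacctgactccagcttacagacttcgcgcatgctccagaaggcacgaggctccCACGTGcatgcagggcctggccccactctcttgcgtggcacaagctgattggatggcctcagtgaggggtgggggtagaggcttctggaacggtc
Fkbp6 (chr5:135349914-135350163, minus strand): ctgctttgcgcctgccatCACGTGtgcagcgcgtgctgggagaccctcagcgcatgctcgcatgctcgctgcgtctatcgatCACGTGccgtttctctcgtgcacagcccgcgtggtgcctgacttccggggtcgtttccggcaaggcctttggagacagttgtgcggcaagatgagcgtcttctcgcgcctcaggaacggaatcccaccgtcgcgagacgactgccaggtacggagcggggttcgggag
Ddx4 (chr13:112652311-112652560, minus strand): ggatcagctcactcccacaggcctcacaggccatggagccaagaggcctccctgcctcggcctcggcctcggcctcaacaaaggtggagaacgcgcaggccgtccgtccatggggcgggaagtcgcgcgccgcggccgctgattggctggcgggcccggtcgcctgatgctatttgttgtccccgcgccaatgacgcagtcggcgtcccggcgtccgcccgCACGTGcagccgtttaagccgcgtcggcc
Sycp3 (chr10:88459337-88459586, plus strand): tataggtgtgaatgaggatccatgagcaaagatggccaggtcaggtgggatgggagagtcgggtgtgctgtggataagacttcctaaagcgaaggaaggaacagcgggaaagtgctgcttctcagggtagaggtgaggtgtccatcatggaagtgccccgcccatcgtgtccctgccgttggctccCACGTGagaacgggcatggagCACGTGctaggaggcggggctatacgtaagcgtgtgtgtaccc
Hormad1 (chr3:95559427-95559676, plus strand): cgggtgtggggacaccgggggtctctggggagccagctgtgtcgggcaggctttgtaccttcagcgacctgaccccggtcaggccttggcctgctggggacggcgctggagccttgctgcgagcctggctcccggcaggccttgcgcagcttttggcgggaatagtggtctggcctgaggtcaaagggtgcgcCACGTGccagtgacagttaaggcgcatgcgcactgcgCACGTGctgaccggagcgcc
Sohlh1 (chr2:25847249-25847498, minus strand): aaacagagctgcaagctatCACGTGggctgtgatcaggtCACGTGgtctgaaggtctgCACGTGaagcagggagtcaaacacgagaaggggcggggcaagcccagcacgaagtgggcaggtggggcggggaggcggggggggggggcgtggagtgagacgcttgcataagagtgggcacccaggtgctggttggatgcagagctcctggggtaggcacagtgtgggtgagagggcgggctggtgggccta

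Nxf2 held 5 E-boxes in these 250 bases, the nearest 7 and the farthest 80 bases before the start. Sohlh1 held 3, which lay between 192 and 231 bases before the start, and Tdrd9, Fkbp6, Sycp3 and Hormad1 held 2 each. Ddx4 held 1, 29 bases before the start. Because of that choice, the counts over all genes matter more. Windows of 250 bases before to 50 bases after a start were held for 11192 of the 14037 tested symbols. CACGTG stood in 9.65% of their windows and in 7.15% of all 32851 windows of the table. Among windows of genes that rose at least 4-fold the share was 16.5% (42 of 255). It was 11.3% for rises of 2-fold to under 4-fold and 11.6% for rises under 2-fold. For genes that did not pass it was 9.22%, for falls under 2-fold 8.89% and for falls of at least 2-fold 6.93%. Limited to windows of 50 to 70% GC, the shares were 26.4% for rises of at least 4-fold, 9.87% for genes that did not pass and 7.07% for falls of at least 2-fold. GCGGGAA, an E2F-type motif read on both strands, stood in 8.24% of the windows of genes that rose at least 4-fold and in 7.86% of all windows of tested genes, and both motifs together in 3.14% and 0.774%. In windows of 50 to 70% GC, GCGGGAA stood in 14.4% for rises of at least 4-fold, 7.81% for genes that did not pass and 4.32% for falls of at least 2-fold. The longer GCGCGAAA stood in 0.392% and 0.62%. These are descriptions of letters in a window, not of binding.

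The E-box was also counted by gene group. Of the piRNA pathway genes with a window, 9 of 15 that rose held it and 0 of 4 that did not. For the synaptonemal complex and axis these counts were 6 of 12 and 0 of 2, and for germ cell transcription factors 5 of 9 and 0 of 4. Recombination genes held it in 1 of 12 risen genes and 1 of 7 others. Germline RNA-binding genes held it in 3 of 6 and 3 of 15, and the X-linked clusters in 2 of 19 risen genes. Genes that did not rise held it too in other lists: 10 of 25 aminoacyl-tRNA synthetases and translation factors, none of which rose, 6 of 15 members of the MAX network (1 of 7 that rose), 6 of 16 immediate-early genes (0 of 3) and 6 of 22 genes of DNA and H3K9 methylation (1 of 5). In the Prame-like and 2-cell-like list, none of the 15 risen genes with a window held it. Of the 12 largest rises, 3 of 10 genes with a window held it (Nxf2, Tdrd9 and Ctag2l2), and of the 12 largest falls, 0 of 8.

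**Figure D4:**
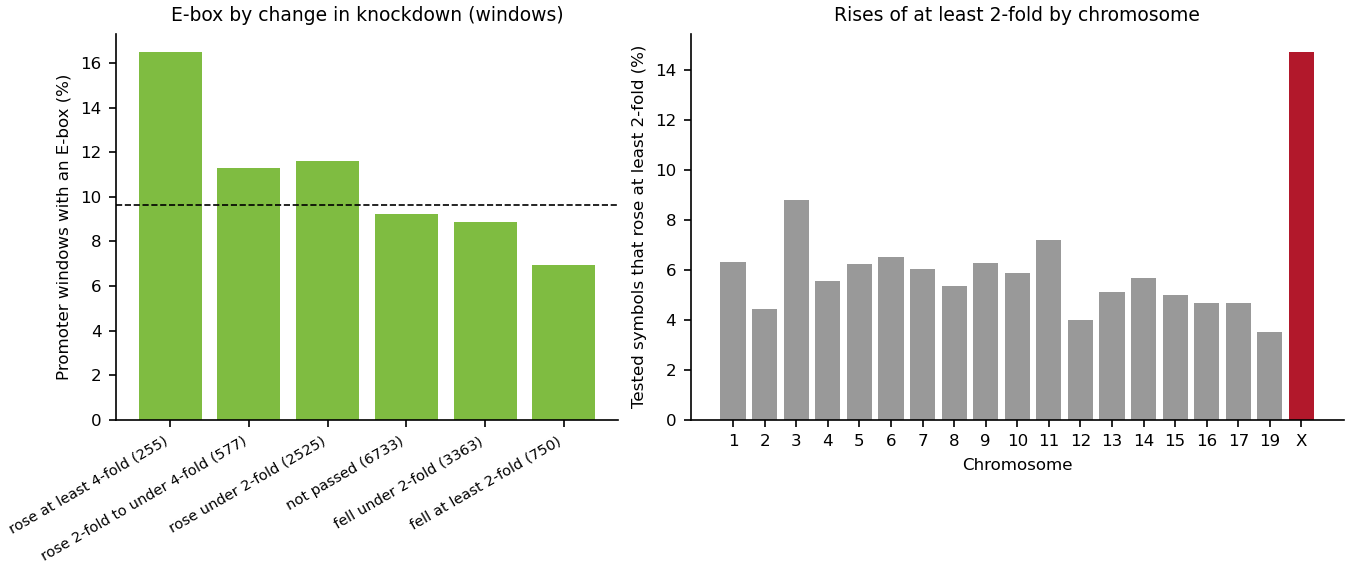
Left, the percentage of RefSeq promoter windows with an E-box by class of change in knockdown cells, with the number of windows in parentheses and all tested symbols (9.65%) as a dashed line; the bar of genes that rose at least 4-fold stands highest, at 16.5%. Right, the percentage of tested symbols that rose at least 2-fold on X, in red at 14.7%, and on each autosome that has windows here. Y, with 7 tested symbols, is not drawn.

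Some genes crossed the detection limit of the array. On 0 of 3 control arrays and on all 3 knockdown arrays, 93 symbols were well above background, and all 93 passed the test at 2-fold, which their choice favours. The bound on the ratio was at least 2-fold for 84 and at least 4-fold for 26 of them. Nt5el, a nucleotidase-like gene, stood at -6.81, -6.79 and -6.55 against -1.82, -2.16 and -1.95 and was at least 13.9-fold higher. Rad51ap2 was at least 8.93-fold higher and Kdm4d, a histone demethylase of the testis, at least 5.80-fold. In the E13.5 PGC arrays, which took no part in the choice, 29 of the 93 (31.2%) were above background on all 3 arrays, against 208 of 4542 (4.58%) of the other symbols that were dim on all control arrays. The reverse pattern, above background on all control arrays and no knockdown array, held for 131 symbols, of which 113 passed the test. Their bounds were smaller, at least 2-fold for 37 and at least 4-fold for 5: Rflna, Ackr4, Ltb, Nsg1 and Meox1. Of these 131, 33 (25.2%) were above background on all PGC arrays.

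Of 27 tested pluripotency factors 10 rose and 4 fell, with a median of 0.17. At least 2-fold, 1 rose and 2 fell, against 6.08% and 5.65% of all genes with a symbol. Dppa3, a maternal and PGC protein, stood at -3.56, -3.68 and -3.82 against -1.10, -1.40 and -1.69 (difference 2.29, SE 0.11, adjusted p = 0.00021). Klf4, Tfcp2l1, Tbx3, Klf5 and Sox2, all factors of the naive state, rose by 0.92, 0.87, 0.87, 0.78 and 0.57. Klf4 stood at 2.77, 2.73 and 2.66 against 3.82, 3.54 and 3.55. Zfp42, Esrrb, Tdgf1 and Utf1 did not pass (0.08, 0.38, -0.07 and -0.25). The probe of Nanog was dim, near -4.17 in control cells, and fell by 0.97, with 2 of 3 knockdown arrays above background. Lefty1, a Nodal inhibitor that ES cells express strongly, fell from 3.52, 3.36 and 3.91 to 1.74, 1.41 and 1.73 (difference -1.96, SE 0.13, adjusted p = 0.00039).

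Signalling genes that maintain or leave the ES cell state moved in both directions, beside 23% rises and 29% falls over all genes with a symbol. In the LIF and STAT3 pathway, 9 of 26 tested members rose (34.6%) and 7 fell (26.9%), counts that were 4 and 6 without control 3 or without knockdown 4. Il6ra, the interleukin 6 receptor, stood at -1.28, -1.72 and -1.82 against 0.46, -0.09 and -0.15, and Stat5a rose by 0.95. Cish, a feedback inhibitor of STAT5, fell by 1.13, while the STAT3 feedback inhibitor Socs3 rose by 0.36. In the FGF and ERK pathway 6 of 30 rose (20%) and 15 fell (50%), with a median of -0.29. Without control 3, or without knockdown 4, 5 rose and 8 fell. The ligand gene Fgf1 rose from -2.07, -2.58 and -2.42 to 0.20, -0.42 and -0.31 and the receptor gene Fgfr3 by 1.12, while Fgf15 fell by 1.69 and the ERK phosphatase gene Dusp4 by 1.01. Fgfbp3, which binds FGFs, fell by 3.97, from -1.14, -0.27 and -0.49 to -4.67, -4.09 and -5.04, with 2 of 3 knockdown arrays above background. Fgf4, the autocrine ligand of ES cells, fell by 0.41.

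The Nodal, activin and BMP pathway fell in 15 of 33 tested members (45.5%), 6 of them at least 2-fold, and 3 rose (9.09%). Besides Lefty1, its relative Lefty2 fell by 1.18. The signal transducer gene Smad3 fell by 1.58 and the ligand gene Bmp8b by 1.33. Nodal itself fell by 0.51. Inhbb, an activin subunit, rose from 0.49, 0.27 and 0.01 to 1.55, 1.75 and 1.76, and Id3, a BMP target, rose by 1.05 where Id2 fell by 0.95 and Id1 did not pass (0.30). Of 38 Wnt pathway genes, 6 rose (15.8%) and 13 fell (34.2%), beside 23% and 29% of all genes with a symbol. The receptor gene Fzd2 fell by 1.80 (1.10, 1.31 and 1.38 against -0.73, -0.35 and -0.53) and the inhibitor gene Rnf43 by 1.48, while the nuclear effector Lef1 rose by 1.46 and the target Cdx1 by 1.17. Among 26 retinoic acid genes 17 fell (65.4%) and 3 rose (11.5%), with a median of -0.64. Aldh1a2, which makes retinoic acid, stood at -2.42, -2.24 and -2.56 against 0.18, 0.17 and 0.08, a rise of 2.55 (SE 0.08, adjusted p = 8e-05). The carrier gene Crabp2 fell by 1.44, the retinaldehyde reductase gene Dhrs3 by 1.84 and the degrading enzyme gene Cyp26a1 by 0.74, so that Aldh1a2 and Stra8 stood against most of the list.

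Contractile genes gave some of the largest falls. Of 34 tested contractile and SRF target genes 20 fell, 12 of them at least 2-fold, and 5 rose, none at 2-fold. SRF is the serum response factor, which binds the CArG box and switches on actin genes. Acta2, smooth muscle actin, stood at 1.17, 0.57 and -0.19 on the control arrays and at -2.97, -3.21 and -3.81 on the knockdown arrays (difference -3.84, SE 0.18, adjusted p = 0.0002). Tagln, transgelin of smooth muscle, stood at 3.73, 3.15 and 2.64 against 0.53, 0.00 and -0.31. Cardiac actin, Actc1, stood at -1.0, -2.03 and -2.96 against -5.24, -5.80 and -6.86, with 1 of 3 knockdown arrays above background. For all 3 genes the control arrays spread over more than 1 log2 unit and the groups did not overlap. Tropomyosin genes Tpm2, Tpm4 and Tpm1 fell by 1.37, 1.32 and 1.25, and Srf itself by 0.85. Actg2, Myh6, Cnn1 and Myl6 did not pass (0.17, -0.03, -0.08 and -0.01), and Vcl, vinculin, rose by 0.45.

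The CArG box could be read the same way, on both strands of the same windows. It stood in 1.36% of the windows of tested genes, in 3.07% of those of genes that fell at least 2-fold and in 0.784% of those of genes that rose at least 4-fold. Among contractile genes with a window, 6 of 17 that fell held it and 4 of 13 that did not fall. The upstream sequence of Actc1 is shown with its CArG box in capitals, 47 bases before the start.

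Actc1 (chr2:114052876-114053125, minus strand): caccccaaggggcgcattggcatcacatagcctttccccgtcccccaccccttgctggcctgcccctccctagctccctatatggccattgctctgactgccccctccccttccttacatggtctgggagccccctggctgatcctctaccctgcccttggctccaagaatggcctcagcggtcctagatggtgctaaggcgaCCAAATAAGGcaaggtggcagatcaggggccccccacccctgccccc

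Targets and members of the YAP and TEAD pathway, which reads cell shape and tension, fell in 17 of 29 tested cases, 7 of them at least 2-fold, with 1 rise (Ajuba, 0.67). Ankrd1 stood at -3.14, -3.77 and -3.74 in control cells and below background on all knockdown arrays, at least 3.64-fold lower. Ccn1, a matricellular target, fell from 0.74, 0.87 and 1.04 to -0.24, -0.19 and -0.29 (difference -1.12, SE 0.09, adjusted p = 0.0007), whereas Ccn2 did not pass (0.37). Axl, a receptor kinase, fell by 1.58 and Amotl1 by 1.15. The cofactor gene Vgll4, above background on no knockdown array, was at least 2.18-fold lower. Among the effectors, Yap1 fell by 0.28, Tead4 by 1.03 and Tead2 by 0.71, while Tead1 and Wwtr1 did not pass.

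Extracellular matrix genes fell in 14 of 35 tested cases, 12 of these at least 2-fold, and 3 rose. Fibrillar collagen gene Col1a2 stood at 1.05, 0.95 and 0.54 against -1.13, -1.82 and -1.59 (difference -2.36, SE 0.19, adjusted p = 0.00068). Mmp2, a gelatinase, fell by 1.95 and Fbln1, fibulin, by 1.19. The basement membrane collagens Col4a1 and Col4a2 fell by 1.47 and 1.45, and laminin genes Lamb1 and Lama1 by 1.03 and 0.78. Fn1, Sparc, Lamc1 and Nid1, which are of the same membranes, did not pass (-0.00, -0.09, -0.13 and 0.08). Col6a1 rose by 1.52. Of 10 tested fibroblast markers, 7 fell and none rose, with a median of -1.59, or -1.20 with dim genes at their bound. Of these 7, 4 are also members of the matrix list, so that the lists are not independent. Of the 12 listed, Lum and Postn were above background on no array. The summed level of the markers, most of which was Fn1, ranged from 5.65 to 5.70 on the control arrays and from 5.30 to 5.59 on the knockdown arrays. The part of fibroblasts in these falls was not tested.

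Adhesion and intermediate filament genes fell in 26 of 37 tested cases, 13 of them at least 2-fold, with 3 rises and a median of -0.69. Krt19, a keratin of simple epithelia, stood at 2.91, 2.67 and 2.49 against 0.69, 0.86 and 0.18 (difference -2.11, SE 0.11, adjusted p = 0.00026). The keratin genes Krt8 and Krt18 fell by 1.32 and 0.92, and Krt17 by 2.19. The tight junction genes Cldn3, Cldn6 and Cldn4 fell by 1.90, 1.68 and 1.5, and the splicing factor of epithelial cells Esrp1 by 1.48. Both Cdh2, N-cadherin, and Cdh1, E-cadherin, fell, by 2.27 and 0.55. Nes, the neural filament nestin, fell from 1.12, 1.23 and 1.53 to -0.60, -0.39 and -0.15. Epcam and the integrins Itga5 and Itga6 did not pass (-0.03, -0.02 and 0.11). Pcdh8, a protocadherin, rose by 2.44.

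Hox and lineage homeobox genes had the lowest median of all lists, -0.78 (-0.75 with bounds), with 19 of 35 tested members falling, 13 of them at least 2-fold, and 2 rising. Many were near the background: of those above background on all 6 arrays, 12 fell and 2 rose. Nkx2-5, a heart factor, stood at -2.22, -2.13 and -2.30 against -4.60, -4.47 and -4.65 (difference -2.36, SE 0.07, adjusted p = 7.8e-05), and Irx3 fell by 2.28. Of the clusters, Hoxc4 and Hoxc6 fell by 1.81 and 2.03, Hoxa10 by 1.34 and Hoxb3 by 1.14, while Hoxd1 rose by 2.21. In the group where they were lower, Hoxa10 was above background on 1 of 3 arrays and Hoxb3 and Hoxd1 on 2. Hoxd9 was at least 1.46-fold lower.

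Imprinted genes, which are expressed from 1 parental copy, fell in 20 of 35 tested cases, 7 of them at least 2-fold, and rose in 5 (13 and 3 without control 3 or without knockdown 4). Grb10, a growth inhibitor, stood at -1.22, -1.12 and -0.90 against -3.17, -3.35 and -3.06 (difference -2.12, SE 0.08, adjusted p = 0.00013). Phlda2 fell by 2.33, Sgce by 1.23, Igf2 (1 of 3 knockdown arrays above background) by 1.20 and Sfmbt2 by 1.15. Maternally and paternally expressed genes were both among the falls. Magel2 and Mkrn3, neighbours of Ndn, rose by 1.11 and 0.61 where Ndn fell by 0.32. The second probe of Asb4 gave 0.02 where the probe used, above background on 1 of 3 knockdown arrays, gave -1.93.

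The remaining large falls belonged to no single group. Megf10, an engulfment receptor, stood at -1.86, -1.89 and -2.18 against -5.15, -6.62 and -6.86 (difference -4.23, SE 0.39, adjusted p = 0.00091), with 1 of 3 knockdown arrays above background. The filamin partner gene Rflna was at least 9.76-fold lower, Ackr4, a chemokine scavenging receptor, at least 7.05-fold, and Meox1, a somite factor, at least 4.85-fold. Dach1, a retinal and limb cofactor, fell by 3.63 by the probe used, with 1 of 3 knockdown arrays above background, and by 2.61 by another. Glipr1, Pcdh18 and Daam2 were at least 3.44-fold, 3.78-fold and 2.11-fold lower, with no knockdown array above background.

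Growth and metabolic genes, which MYC and MAX activate in many cells, were read by list. Polyamine and nucleotide synthesis genes fell in 21 of 33 tested cases with no rise (12 without control 3 or without knockdown 4), with a median of -0.34. Uck2, a uridine kinase, stood at 4.78, 4.67 and 4.54 against 3.64, 3.55 and 3.58, the single member past 2-fold (difference -1.07, SE 0.08, adjusted p = 0.00053). Of the purine pathway, Adsl, Gart, Paics, Gmps and Atic fell by 0.91, 0.79, 0.76, 0.73 and 0.50. The polyamine enzymes Srm, Sms and Odc1 fell by 0.77, 0.72 and 0.27. Tyms and Pfas did not pass (-0.25 and -0.07).

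Ribosome biogenesis genes fell in 17 of 47 tested cases and rose in 6, with a median of -0.21. Known MYC targets in this list did not move far: Ncl and Fbl did not pass (-0.21 and -0.12), Npm1 fell by 0.27 and Nop56 by 0.21. Nolc1 fell by 0.69 by the probe used but its other probe gave 0.11, and Pes1 rose by 1.07 where its other probe gave -0.09. Of 48 cytosolic ribosomal protein genes, 17 fell and none rose, at most by 0.45 (Rpl28, 6.67, 6.64 and 6.66 against 6.17, 6.21 and 6.26), and with quantile normalization or with spike-in scaling 3 fell. Aminoacyl-tRNA synthetases and translation factors fell in 13 of 33 cases with no rise, led by Kars (5.56, 5.70 and 5.66 against 4.79, 4.91 and 4.87) and Sars (-0.75). For these lists the counts of falls without control 3 or without knockdown 4 were 9, 3 and 7.

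Serine and one-carbon genes fell in 14 of 33 tested cases, 5 of them at least 2-fold, and 3 rose. Phgdh, the first enzyme of serine synthesis, stood at 4.39, 4.52 and 4.78 against 3.17, 3.01 and 3.37 (difference -1.38, SE 0.08, adjusted p = 0.00033), and the following enzymes Psat1 and Psph fell by 1.09 and 0.81. Tdh, threonine dehydrogenase, on which mouse ES cells rely, rose by 0.72. Atf4 and Asns, of the amino acid response, did not pass (0.02 and -0.37). Glycolysis genes fell in 14 of 26 cases and 1 rose, with Aldoc at -1.01, Pfkm at -0.82 and Pgk1 at -0.65, while Ldha and Gapdh did not pass and Hk2 rose by 0.38. Without control 3, or without knockdown 4, 9 of these fell. For the respiratory chain and the TCA cycle, 3 of 40 rose and 8 fell, with a median of -0.06 that was 0.04 with quantile normalization.

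Cholesterol and fatty acid synthesis genes fell in 23 of 33 tested cases, 4 of them at least 2-fold, and 3 rose, with a median of -0.54. Along the mevalonate and sterol pathway, Pmvk fell by 1.03, Mvd by 1.10, Fdps by 0.93, Lss by 0.84, Ebp by 0.94 and Dhcr7 by 1.01. Pmvk stood at 4.66, 4.84 and 4.87 against 3.64, 3.85 and 3.77. Abca1, which exports cholesterol, stood at -2.61, -2.92 and -2.62 against 0.18, 0.11 and 0.31, a rise of 2.91 (SE 0.10, adjusted p = 9.3e-05). The regulators Srebf1 and Srebf2 fell by 0.58 and 0.48. Among 39 lysosome and autophagy genes, 9 rose (23.1%) and 12 fell (30.8%), near the 23% and 29% of all genes with a symbol. Their median of -0.01 was 0.00 with spike-in scaling. Gabarapl1 and Neu1 fell by 1.37 and 1.36, and the factor gene Mitf rose by 1.35.

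Genes of the p53 response and of the BCL2 family fell in 24 of 39 tested cases, 4 of them at least 2-fold, and 2 rose, with a median of -0.38. Bbc3 (Puma), which promotes apoptosis, stood at 2.55, 2.67 and 2.57 against 1.26, 1.37 and 1.51 (difference -1.22, SE 0.09, adjusted p = 0.00049). Among other death-promoting members, Bok, Hrk and Bik fell by 1.40, 0.89 and 0.79, and among protective ones Bcl2 and Bcl2l2 by 0.97 and 0.86. Pmaip1 (Noxa) rose by 0.82 and Ddb2 by 0.90, and Trp53, Mcl1 and Bax did not pass. Of 41 cell cycle regulators, 6 rose (14.6%) and 13 fell (31.7%), beside 23% and 29% of all genes with a symbol. None of these changes reached 2-fold. Cdkn1a fell by 0.54 and Cdkn2d, an inhibitor of CDK4, rose by 0.84, whereas the mitotic genes Ccnb1, Cdk1 and Aurka did not pass.

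Interferon and viral RNA sensing genes were split, with 7 rises and 15 falls of 29 tested. Psmb8, an immunoproteasome subunit, stood at -0.33, -0.18 and 0.06 against -3.47, -3.37 and -2.79 (difference -3.06, SE 0.10, adjusted p = 8e-05). Its MHC neighbour Tap1 fell by 1.10, and Psmb9 did not pass (0.07). The MHC class I genes H2-D1 and H2-K1 rose by 1.61 and 0.93. Zbp1, a sensor of Z-form RNA, fell by 1.85 and Oasl2 by 1.39, while Usp18 rose by 1.16. Immediate-early genes fell in 12 of 23 cases and 4 rose, with Egr2 at -2.03 and Egr1 and Fos at 0.44 and 0.45. Heat shock and unfolded protein response genes counted 8 rises (23.5%) and 10 falls (29.4%) of 34, near the 23% and 29% of all genes with a symbol. Hspa1a was at 1.25 and Bag3 at -1.36.

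Enzymes of DNA and H3K9 methylation, which also silence germline genes, showed 7 rises (22.6%) and 10 falls (32.3%) of 31 tested. These shares were near those of all genes with a symbol, 23% and 29%. Dnmt3l, a cofactor of DNA methylation, stood at 5.39, 5.26 and 4.84 against 6.16, 6.24 and 6.21 (difference 1.04, SE 0.12, adjusted p = 0.0019, or 0.0672 in a fit of all 9 arrays). Morc1, a germline silencing factor, rose by 1.23. The methyltransferase genes Dnmt3a and Dnmt3b fell by 0.28 and 0.31, Setdb1 rose by 0.36, and Dnmt1 and Uhrf1 did not pass (0.12 and -0.21). Apobec1, a cytidine deaminase, fell from 1.55, 1.55 and 1.59 to 0.21, 0.10 and 0.25. Neuronal and synaptic genes gave 5 rises (19.2%) and 7 falls (26.9%) of 26, also near the shares of all genes. Their median of -0.12 was 0.01 in the normexp correction without high-background spots. Gap43, a growth cone protein, fell by 1.58 and Nefm, a neurofilament, rose by 0.97.

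Markers of other cell types were read on the same arrays. Of 12 primitive endoderm markers 8 fell and none rose, with a median of -0.82. Their summed level, most of which was Sparc, was 6.82 to 6.97 in control cells and 6.60 to 6.85 in knockdown cells. Of 8 tested trophectoderm markers 4 fell and 1 rose, and of 5 neural markers 2 fell. Of 8 gonadal somatic markers on the array, 7 were above background on all control arrays and 6 on all knockdown arrays, among them Foxl2 and Wt1, with a summed level of 3.99 to 4.01 in control cells and 3.70 to 3.88 in knockdown cells. Sox9, above background on no knockdown array, was at least 2.25-fold lower, the other 6 tested did not pass, and Amh was above background on no array. Of 5 blood markers, Cd34, Gata1 and Hbb-bh1 were above background on all 6 arrays and did not pass, and Ptprc and Hba-x were above background on none. Endothelial markers Tie1, Tek and Pecam1 rose by 2.84, 1.13 and 0.83. Kdr, the brightest endothelial marker in control cells, was above background on all 6 arrays and did not pass (-0.07). Cdh5 and Emcn were above background on no array. All 8 tested 2-cell-like markers, which are also members of the list described above, rose. Of 10 germ cell markers 6 rose, among them Ddx4, the gene of the sort reporter. Except for Kit, the risen germ cell markers are also members of lists described above, so that these counts are not independent. The summed level of the 2-cell-like markers was 4.31 to 4.75 in control cells and 6.31 to 6.89 in knockdown cells, and its part in the other rises was not tested.

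The slides could be taken apart. Slide 1 held control 1 and 2 and knockdown 1 and 2, and slide 2 held control 3 and knockdown 4. Of 1537 probes with a difference of 1 or more on slide 1, 1526 (99.3%) had the same sign and 1256 reached 1 on slide 2, with medians of 1.62 and 1.52. Of 1194 probes at -1 or below on slide 1, 1174 (98.3%) had the same sign on slide 2 and 918 reached -1, with medians of -1.31 and -1.28. Across probes, which are not independent replicates, the differences on the slides correlated at 0.913. Max fell by 2.08 on slide 1 and by 1.73 on slide 2.

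**Figure D5:**
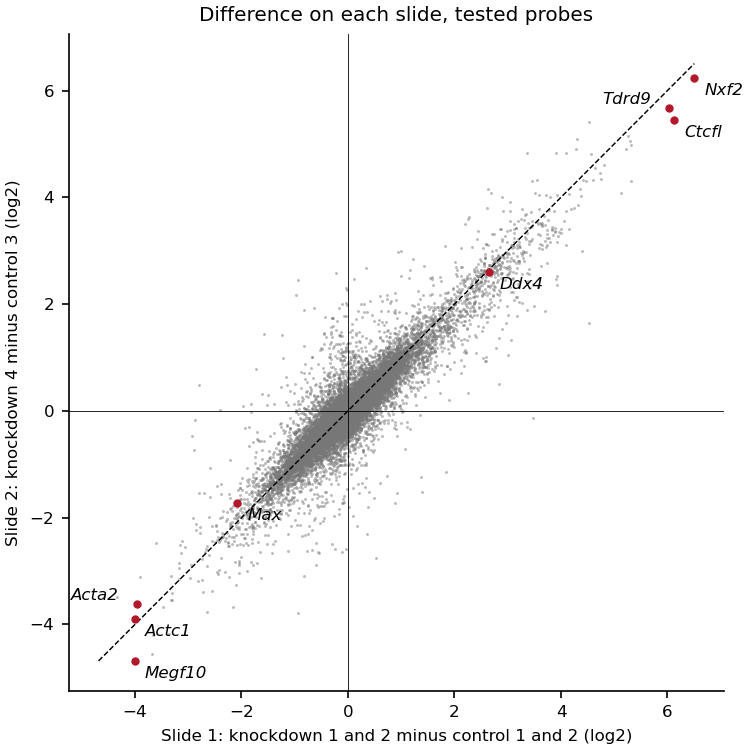
For each of 24176 tested probes, the difference between knockdown and control arrays of slide 1 (x axis, log2) is plotted against that of slide 2 (y axis, log2), with the line of equal values dashed. Labelled genes lie near the line, with Max at -2.08 and -1.73.

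Probes of the same gene could be set against each other in the same way. Of 281 genes with 2 or more tested probes whose brightest probe changed at least 2-fold, all probes had the same sign in 273, opposite signs occurred in 8, and all probes lay within 1.5-fold of each other in 196.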

How the data were processed

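RNA of sorted cells (100 ng of total RNA a sample) was hybridised to 6 Agilent 1-colour arrays. Per the file headers, the deposited scanner files hold Cy3 intensity by spot, from which Feature Extraction 10.7.3.1 had already subtracted and detrended the background. The authors' deposited value table holds log2 values; it matched log2 intensities scaled to the 75th percentile once each probe's median was subtracted (r across probes from 0.99994 to 0.99998 on these arrays), and its column medians were -0.02, -0.12, -0.07, 0, 0 and 0. Its scaling and centring are not stated, and whether further steps were applied is unknown.

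Replicate spots were averaged, and log2 intensity was taken relative to the 75th percentile of the array. Testing used limma 3.58.1 (lmFit, eBayes) under R 4.3.3, with the slide as a block and Benjamini-Hochberg adjustment over 24176 probes. The median SE was 0.10. In data simulated on these arrays, 87% of changes of log2 1 and 96% of log2 2 were recovered, and 14 of 197 calls were false. The simulation changed only 200 probes and drew independent noise for each array, unlike the real comparison, so these rates need not hold for it. An exact permutation test of 3 against 3 arrays cannot go below 0.1. "At least N-fold" is a bound: the bright group's mean against the higher of the dim probe's signal and the lowest signal well above background on each array of the dim group. Of the probes used, 26017 were named through RefSeq accessions (GRCm38.p6, names only, since the array design gives mm9) and 13353 kept the file's name. Named were Max, Ddx4, Pou5f1, the 12 largest rises and falls, and of each of 37 lists the 4 members with the strongest test and the called member most against its median. Some genes that this rule names are not reported here. Other genes were named after their values were seen, and members and lists were chosen with earlier results of these data known. The summed level of markers is log2 of their summed signal. Same-numbered arrays of slide 1 deviated together (r = 0.357), and only numbers 1 and 2 are shared. Alternatives were other normalizations, backgrounds, filters, blocks and probe rules, and leaving out each array. The number of arrays limits the precision.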

Additional observations from a re-analysis of the deposited data

How the results depend on the processing

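The counts of probes that passed were 5262 rises and 6678 falls, with 1492 and 1154 at 2-fold. Without a filter on dim probes there were 4084 rises and 4407 falls. Spike-in scaling gave 4295 rises and 4446 falls, and slide 1 alone 3576 and 4003. With normexp on the median signals no probe passed (0 rises and 0 falls; 2449 probes had an unadjusted p under 0.05). Without spots of high local background, an alternative chosen after seeing the data, normexp gave 5835 rises and 5927 falls, with 754 and 429 at 2-fold. Leaving out each array in turn gave 3576 to 4774 rises and 4003 to 6055 falls, and 1435 to 1520 and 1110 to 1186 at 2-fold. Without control 3, or without knockdown 4, the other array of slide 2 has no partner, so both equal slide 1 alone; within slide 2 no test was possible. The replicate block, with numbers that the labels do not tie to a shared culture, gave 4571 rises and 5453 falls, and 1526 and 1167 at 2-fold. Pairs on slide 1 deviated together (r = 0.357). Fits without the slide block gave 4534 and 5595, and over all 9 arrays 4551 and 5505. Under normexp on all median signals these named genes changed sign, none with a call: Ankrd1 0.091, Glipr1 0.39, Meox1 0.13, Pcdh18 0.33, Daam2 0.49, Cntd1 0.80, Eif4e1b 0.77, Zbtb16 0.034, Zxdb 0.11, Bmp8b 0.043, Amotl1 0.092, Ndufs1 -0.0044, Fosl2 0.29, Btg2 0.12, Tap1 0.22, Asb4 0.36 and Hoxd9 0.83. Of 176 called named genes, 171 kept their side of the threshold in every other test; the exceptions were Eif4e1b, Zxdb, Rpl7a, Ndufs1 and Dnmt3l (adjusted p = 0.0672 over all 9 arrays). Signal over background limits genes dim on all arrays of a group, given as bounds, and genes dim on some arrays, whose differences are less exact.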

Other observations

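Of the 286 genes that rose at least 4-fold, 222 stood in none of the gene lists, and of the 102 that fell at least 4-fold, 79 did. Multigene families, taken by symbol and chosen after their values were seen, stood out among these rises. All 5 tested Tdpoz genes, all 4 Usp17-like genes and all 7 Xlr genes rose at least 2-fold, with medians of 3.14, 2.63 and 2.29, and 15 of 18 Prame-like genes did. Their near-identical copies may share a probe's signal. On the array were 7 Tdpoz, 4 Usp17-like, 8 Xlr and 27 Prame-like genes. Tdpoz4, Tdpoz9 and Pramel6, for example, were above background on no control array. They were tested through their knockdown arrays alone and had to differ. Olfactory receptors rose at least 2-fold in 17 of 71 tested cases (23.9%, against 6.08% of all genes with a symbol), but only 71 of 1054 on the array were tested, and a receptor tested through its knockdown arrays alone had to differ; their median was -0.06. Zinc finger genes of the Zfp series, by contrast, counted 12 rises and 12 falls of at least 2-fold among 332 tested, and solute carriers 25 and 17 of 272.

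Probes without a gene symbol rose at 2-fold in 7.29% and fell in 3.47% of 5612 tested identifiers. Among 2066 predicted transcripts (XM or XR accessions), 207 rose (10%) and 36 fell (1.74%) at least 2-fold, whereas among 762 sequenced cDNA clones 52 rose (6.82%) and 60 fell (7.87%).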
